A study of Mus musculus with 4 samples.

Results

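Messenger RNA of 34 type I interferon response genes was measured in single cells of mouse Peyer's patches, which are clustered lymphoid follicles in the wall of the small bowel. The genes were taken from a list of known interferon-stimulated genes, and all 34 were found among the 31053 genes of the count matrices. Single-cell RNA counts came from CD45+ (white blood) cells sorted from female wild-type Taconic mice, 2 libraries from mice with segmented filamentous bacteria (SFB-positive) and 2 from mice without them (SFB-negative). SFB are gut commensals that attach to the epithelium of the ileum, and the study asked how they change the cells of the patches. Patches of 5 mice per group were pooled, and whether replicates 1 and 2 are separate pools is not given in the sources used here, so the spread between libraries may be technical. Age is not given either.

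Type I interferons (interferon alpha and beta) bind the IFNAR1 and IFNAR2 receptor chains, and the kinases JAK1 and TYK2 then start a signal in which STAT2 and IRF9 enter the nucleus and bind, as part of a complex, to interferon-stimulated response elements (ISREs) in promoters. The genes switched on in this way include antiviral proteins (the IFIT, OAS and MX families), the ubiquitin-like protein ISG15, and IRF7 and USP18, which amplify and restrain the response. In the gut, commensal bacteria are known to keep a low interferon tone in resting immune cells.

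Of the 34 genes, 25 had an entry in the RefSeq promoter table (GRCm38.p6). An ISRE match (GAAA, any 2 bases, GAAA, on either strand) lay in the 250 bases before the start in 13 of the 25 genes (52%), against 936 of 27025 genes in the whole table (3.46%). A STAT motif (TTC, any 3 bases, GAA, on either strand), searched separately so that a base may count in both motifs, was found in 4 of 25 genes (16%), against 8.13% of all genes. The 250 bases upstream of the start are printed for the 5 of 10 core response genes with a match there, and were chosen for that match. Of the other core genes, Ifit2, Oasl1 and Cmpk2 had no match, and Mx1 and Usp18 had no entry and could not be searched. The bases after the start were found near the beginning of a GENCODE transcript of the same gene in 19 of 29 member windows. Capitals mark ISRE matches, and each sequence runs 5′ to 3′ toward the start on the gene's strand. The printed window of Isg15 is chr4:156200819-156201068 (minus strand), that of Ifit3 chr19:34583279-34583528 (plus), of Rsad2 chr12:26456453-26456702 (minus), of Ifit1 chr19:34640639-34640888 (plus) and of Ifit3b chr19:34607707-34607956 (plus).
Isg15: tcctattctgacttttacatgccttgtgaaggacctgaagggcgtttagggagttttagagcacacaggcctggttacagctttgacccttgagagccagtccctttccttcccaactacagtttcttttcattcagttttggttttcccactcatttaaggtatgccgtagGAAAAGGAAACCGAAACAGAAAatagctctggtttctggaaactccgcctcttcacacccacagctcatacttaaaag
Ifit3: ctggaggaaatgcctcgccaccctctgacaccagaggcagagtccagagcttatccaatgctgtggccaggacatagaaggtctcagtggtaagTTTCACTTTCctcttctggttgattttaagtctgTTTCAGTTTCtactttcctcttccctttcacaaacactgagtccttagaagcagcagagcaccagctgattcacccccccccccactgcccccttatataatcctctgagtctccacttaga
Rsad2: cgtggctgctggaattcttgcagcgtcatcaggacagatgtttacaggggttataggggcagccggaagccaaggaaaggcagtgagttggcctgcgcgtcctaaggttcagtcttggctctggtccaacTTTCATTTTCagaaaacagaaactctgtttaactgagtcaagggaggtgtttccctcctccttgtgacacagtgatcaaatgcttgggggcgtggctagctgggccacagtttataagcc
Ifit1: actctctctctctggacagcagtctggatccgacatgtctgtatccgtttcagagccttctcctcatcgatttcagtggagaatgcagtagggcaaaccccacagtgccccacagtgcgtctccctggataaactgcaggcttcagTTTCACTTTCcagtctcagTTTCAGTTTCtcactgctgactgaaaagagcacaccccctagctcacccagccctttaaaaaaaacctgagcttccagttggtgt
Ifit3b: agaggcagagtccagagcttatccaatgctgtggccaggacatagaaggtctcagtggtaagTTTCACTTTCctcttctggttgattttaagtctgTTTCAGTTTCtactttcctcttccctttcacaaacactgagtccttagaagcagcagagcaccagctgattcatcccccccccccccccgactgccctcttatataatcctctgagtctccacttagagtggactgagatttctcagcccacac
In Isg15 the first bases of 3 overlapping matches lie 78, 72 and 66 bases upstream of the start. Ifit3 has matches at 156 and 122, Ifit1 at 104 and 85, Ifit3b at 188 and 154, and Rsad2 1 match at 120. Ifit3 and Ifit3b, neighbours on chromosome 19, share an identical run of 169 bases that holds both matches. A match is a description of the letters and not a measured binding site.

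Of the 31885 barcodes in the series, 2 sets were used, and barcodes in neither set were left out. The authors' table lists 22569 cells in clusters 0 to 6 (3408 and 7380 cells in SFB-positive replicates 1 and 2, and 4050 and 7731 in SFB-negative replicates 1 and 2). Summed B-lineage markers stood at 2940 to 6380 plain CPM in the table, against 10.1 to 22.5 for T-lineage markers, so these cells read as B cells. Plain CPM is a gene's UMIs (unique molecular identifiers, which count RNA molecules) scaled to a fixed total of UMIs in that library and class. CPM alone stands for the same after TMM scaling between libraries, the scale of the tests; neither is per length, as 1 tag marks 1 molecule. By markers, clusters 0 and 1 were naive-like, cluster 3 germinal-centre-like, cluster 4 memory-like by few markers and cluster 6 plasma-like. Cluster 2 stayed unnamed, though its summed naive markers were near those of cluster 0. Cluster 2 had 2550 and 1590 plain CPM in SFB-positive and 3170 and 1290 in SFB-negative replicates 1 and 2. Cluster 0 had 3010 and 1480, and 3450 and 1220. Cluster 5, also unnamed, had germinal-centre marker sums of 1710 and 1340 in SFB-positive and SFB-negative replicate 2, against 1420 and 749 in cluster 3. The other set holds 3435 barcodes outside the table with at least 1 UMI of Cd3d, Cd3e or Cd3g (329 and 1400 in SFB-positive, 302 and 1404 in SFB-negative replicates 1 and 2). They are called Cd3+ barcodes here, since 27.4% and 30.2% of them in SFB-positive, and 28.8% and 42.0% in SFB-negative libraries also carried a B-cell gene, so T cells are mixed with B-cell RNA or doublets.

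Depth followed the replicate number. SFB-positive replicates 1 and 2 held 6979187 and 83600989 UMIs, and SFB-negative replicates 1 and 2 held 7198366 and 47273320. The counts of replicate 1 and replicate 2 carry different software versions, and only replicate 1 has antibody tags. Libraries of 1 number also resembled each other: deviations from the group means correlated at 0.880 across genes in table cells and 0.747 in Cd3+ barcodes. The main tests below keep the replicate number as a term (a block), and their spread rests mostly on what all genes share. Fits named as having no block, and those with 1 library left out, do not keep it. The libraries of number 1 shared 30 barcodes and those of number 2 shared 40.

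Most members were scarce. Summed over all 34 genes, table cells held 832 and 771 plain CPM in SFB-positive replicates 1 and 2, against 772 and 1107 in SFB-negative replicates 1 and 2. The excess in SFB-negative replicate 2 was carried by 1 gene: without Ifi27l2a the sums were 702 and 593 in SFB-positive and 611 and 608 in SFB-negative libraries, values that overlap between groups. In Cd3+ barcodes the sums were 1320 and 1033 plain CPM in SFB-positive, against 1053 and 1463 in SFB-negative libraries, and again 1016 and 710 against 761 and 756 without Ifi27l2a.

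**Figure D1:**
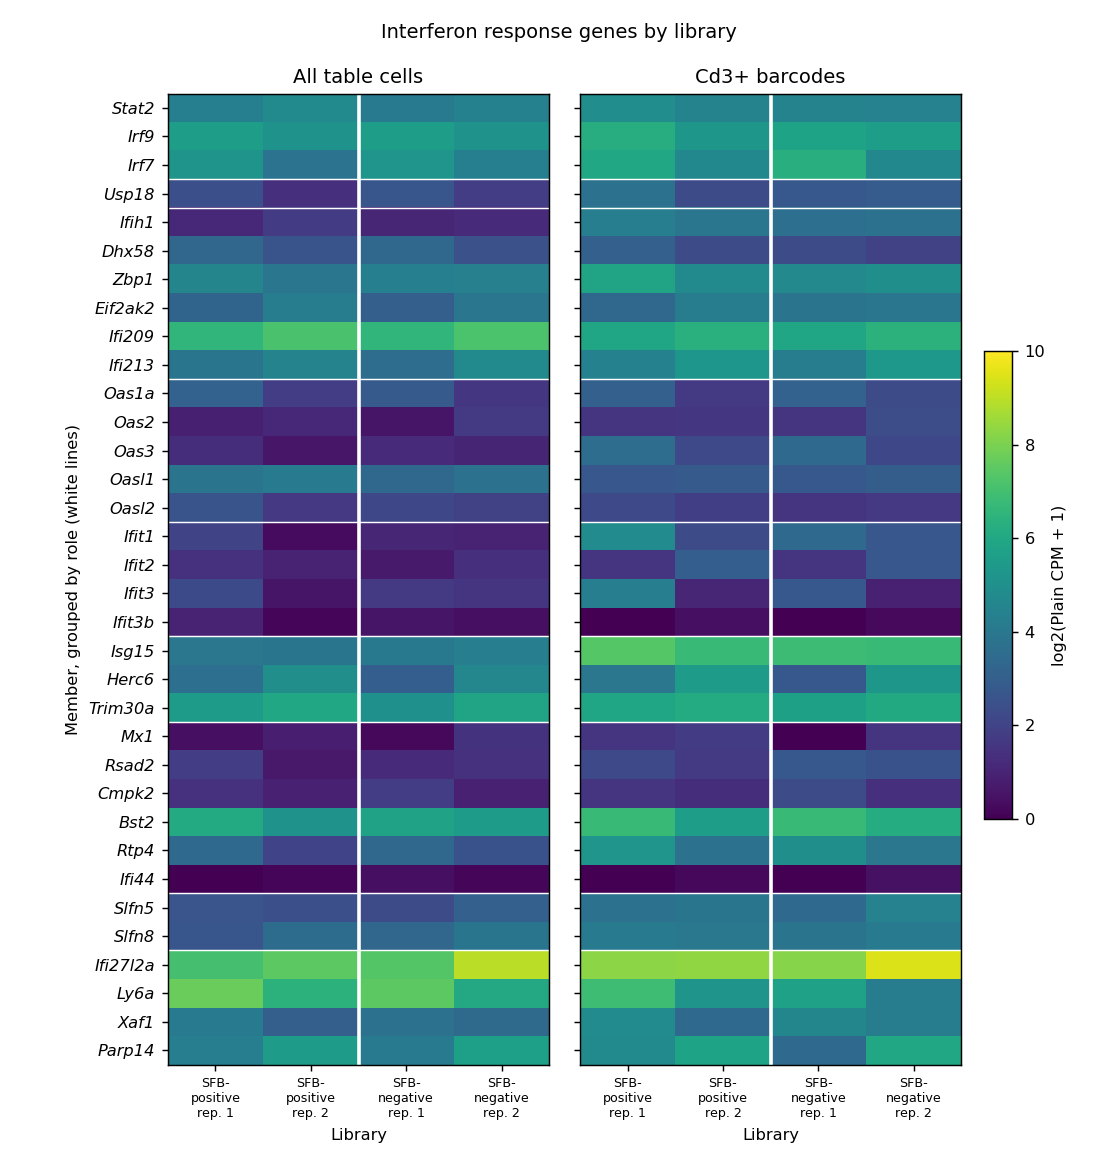
Level of each of the 34 genes, as log2(plain CPM + 1), in each library, for all table cells and for Cd3+ barcodes, with genes grouped by role. Ifi27l2a is brightest in SFB-negative replicate 2 in both panels, and Isg15 is brighter in Cd3+ barcodes than in table cells in all 4 libraries.

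The sign of the SFB difference depended on the replicate number for most members in table cells. Among the 32 genes tested in table cells, 24 were higher in SFB-positive replicate 1 than in SFB-negative replicate 1, with a median log2 difference of 0.25, whereas 27 were lower in SFB-positive replicate 2 than in SFB-negative replicate 2, with a median of -0.73. In 19 of 32 the sign was positive in number 1 and negative in number 2, in 0 of 32 was it the other way round, and in 13 it was the same in both (5 positive, 8 negative). Over all 12268 genes tested the medians were -0.02 and 0, and 21.2% went up in number 1 and down in number 2. In Cd3+ barcodes 19 of 28 tested members were positive in number 1 and negative in number 2 and 2 the other way round, against 22.1% and 24% of all genes, and in cluster 1 the counts were 18 and 0 of 28, against 25.6% and 22.7%. In germinal-centre-like cluster 3 they were 4 and 2 of 17, against 19.1% and 30.9%. Ifit1 (binds viral RNA lacking 2′-O-methylation of its cap) and Rsad2 (viperin, an antiviral enzyme) show the pattern in table cells, each from few molecules. Ifit1 had 19 and 13 UMIs in SFB-positive replicates 1 and 2, against 7 and 30 in SFB-negative replicates 1 and 2, and Rsad2 had 15 and 35 against 8 and 54. Scaled by library size, Ifit1 was thus higher in the SFB-positive library of number 1 (log2 difference 1.501) and lower in that of number 2 (-2.31). The 2 libraries of number 2 also differ from each other in depth, so SFB status, depth and library cannot be told apart within that number.

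**Figure D2:**
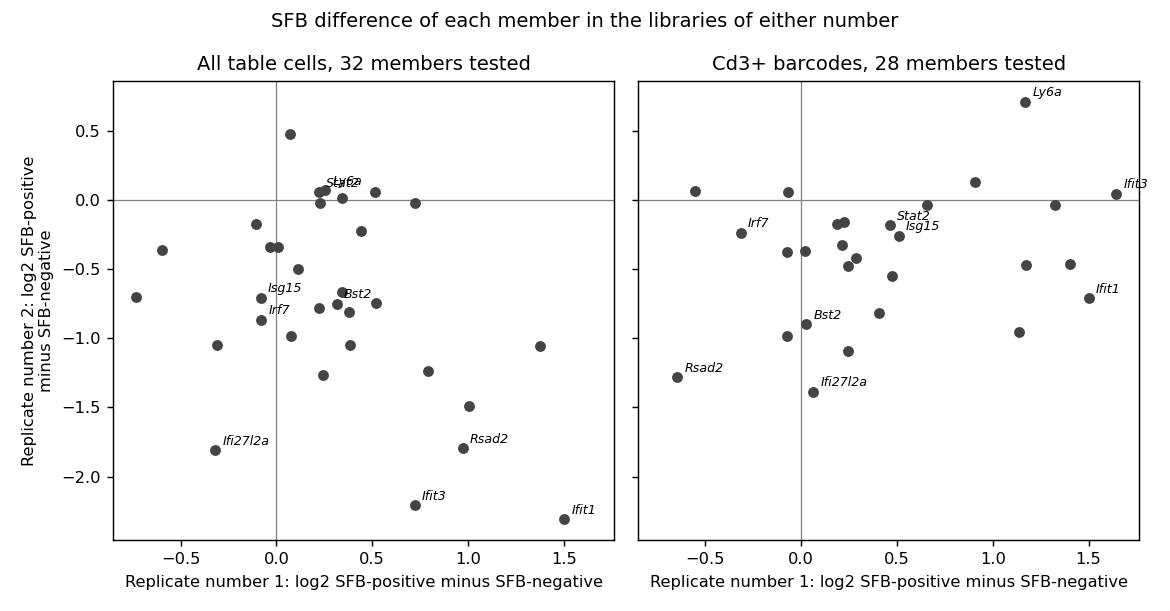
Log2 difference (SFB-positive minus SFB-negative, TMM-scaled) of each tested member between the 2 libraries of replicate number 1 (horizontal) and of number 2 (vertical). In table cells 19 of 32 members, and in Cd3+ barcodes 19 of 28, lie to the right of 0 and below 0.

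With both numbers in 1 model, 1 of 32 members passed an adjusted p of 0.05 in table cells, lower in SFB-positive cells, and 0 were higher; 2.68% of all genes tested were lower and 0.929% higher (edgeR quasi-likelihood test, Benjamini-Hochberg). The median log2 difference over the 32 members was -0.33, against -0.02 over all genes, and 6 of the 32 (18.8%) had an unadjusted p under 0.05, against 11.5% of all genes. Ifit3b and Ifi44 held too few counts to be tested. Groups did not overlap in 5 of the 32 members (Stat2 and Oasl1 higher, Ifi27l2a, Slfn8 and Isg15 lower in SFB-positive libraries), against 10.8% of all genes. Without TMM scaling Ifi27l2a, Stat2 and Slfn8 overlapped as well.

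Ifi27l2a encodes a small membrane protein strongly induced by interferon, and lies at chr12:103442167-103443680 (minus strand; no overlapping gene). In table cells it reached 141 and 146 CPM in SFB-positive replicates 1 and 2, against 175 and 513 CPM in SFB-negative replicates 1 and 2. SFB-negative replicate 2 stood far above the other 3 libraries, which lay between 141 and 175. Without scaling, the groups overlapped, at 130 and 177 plain CPM in SFB-positive and 160 and 498 in SFB-negative libraries. Its level fell by 1.08 on the log2 scale in SFB-positive cells (SE 0.29, edgeR adjusted p = 0.00824), that is 0.474-fold, with a log2 difference of -0.32 in replicate number 1 and -1.81 in number 2. The fall rests on SFB-negative replicate 2: without it the log2 difference was -0.20. The call was also lost without each other library in fits that cannot hold the block (log2 -1.84 to -0.20 over the 4 fits), with RLE scaling (log2 -1.03, adjusted p = 0.0594), with no block (log2 -1.26, when 0% of all genes passed) and with DESeq2 (log2 -1.02, adjusted p = 0.517, with 0.253% of all genes called). In table cells with at most 2980 detected genes the log2 difference was -1.06 (adjusted p = 0.690), with 0.175% of all genes called.

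The same library stood out in every class. Ifi27l2a fell in clusters 0, 2 and 3, and did not pass the test in clusters 1 and 4. Cluster 0 held 149 and 173 CPM in SFB-positive, against 167 and 590 CPM in SFB-negative replicates 1 and 2 (log2 difference -1.003 ± 0.281 SE, edgeR adjusted p = 0.0219). In cluster 2 the values were 105 and 135 CPM in SFB-positive and 161 and 518 CPM in SFB-negative libraries (log2 -1.36 ± 0.32, edgeR adjusted p = 0.00339). Germinal-centre-like cluster 3 had 86.3 and 122 CPM in SFB-positive, against 133 and 399 CPM in SFB-negative libraries (log2 -1.24 ± 0.33, edgeR adjusted p = 0.0166). Without SFB-negative replicate 2 these differences became 0.02 in cluster 0, -0.33 in cluster 2 and -0.34 in cluster 3, in fits with no block. Within replicate number 1 alone they were -0.17, -0.61 and -0.63, and within number 2 they were -1.77, -1.94 and -1.71. In Cd3+ barcodes Ifi27l2a had 320 and 284 CPM in SFB-positive and 307 and 741 CPM in SFB-negative libraries, and did not pass (log2 -0.74 ± 0.27, edgeR adjusted p = 0.235). With every cell thinned to 1000 UMIs, an Ifi27l2a molecule was seen in 10.6% and 13.6% of SFB-positive table cells, against 13.4% and 30.6% of SFB-negative ones. Its level was raised in every class of SFB-negative replicate 2, Cd3+ barcodes included, and the part of free RNA in these shares was not tested.

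**Figure D3:**
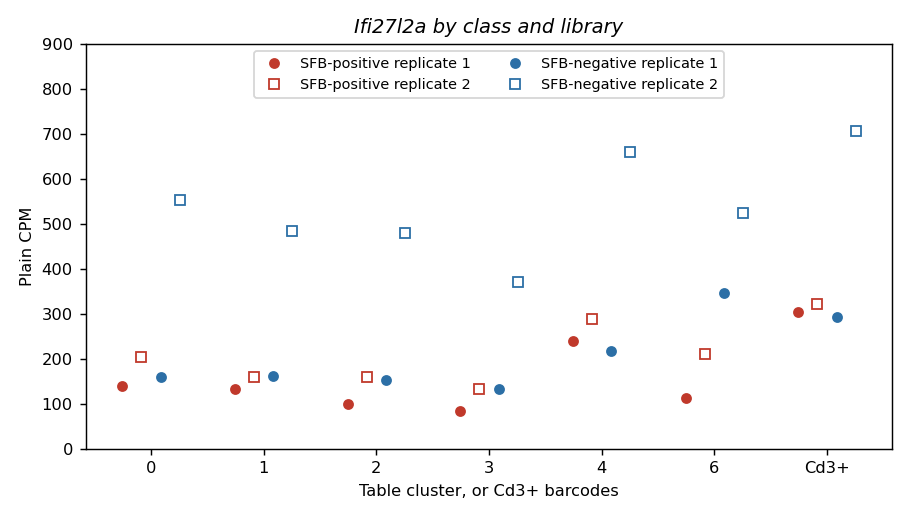
Plain CPM of Ifi27l2a in table clusters 0 to 4 and 6 and in Cd3+ barcodes, 1 point per library. SFB-negative replicate 2 is the highest point in each class, and the other 3 libraries lie together in clusters 0 to 4 and in Cd3+ barcodes.

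In cluster 0, Ifit3, which scaffolds the IFIT antiviral complex, also passed the test, so that 2 of 27 members were lower in SFB-positive cells there, against 1.92% of all genes lower and 0.236% higher. It had 4 and 3 UMIs in SFB-positive replicates 1 and 2, against 6 and 31 UMIs in SFB-negative replicates 1 and 2 (log2 -2.44 ± 0.70, edgeR adjusted p = 0.0283). Scaled, number 1 had 2.06 CPM in the SFB-positive and 2.2 in the SFB-negative library (log2 -0.09). Number 2 had 0.192 and 2.71 CPM (log2 -3.44). The 31 UMIs of SFB-negative replicate 2 lay in 18 of its cells, 8 of them in 1 cell. At 3 to 6 UMIs in the other libraries, the fold change is loosely bounded, and Ifit3 was not testable without SFB-positive replicate 2 or SFB-negative replicate 2. The last 500 bases of its transcripts share 14.9% of their 50-base words with Ifit3b, so reads of both may be split. The other clusters gave 0 of 28 members called in cluster 1 (0.851% of all genes lower, 0.13% higher), 1 of 18 lower in cluster 2 (0.886% lower, 0.258% higher), 1 of 17 lower in cluster 3 (0.972% lower, 0.375% higher) and 0 of 17 in cluster 4 (1.25% lower, 0.282% higher). At an unadjusted p under 0.05 there were 6 of 27 members in cluster 0 (22.2%, against 10% of all genes) and 6 of 28 in cluster 1 (21.4%, against 8.11%). Cluster 2 had 4 of 18 (22.2%, against 7.56%), cluster 3 had 2 of 17 (11.8%, against 9.24%) and cluster 4 had 1 of 17 (5.88%, against 10%). DESeq2, with the block, called 0 members in any cluster, against 0.0471% of all genes in cluster 0, 0.0701% in cluster 1, 0.0561% in cluster 2, 0.0506% in cluster 3 and 0.0471% in cluster 4. Cluster 5 had 0 and 1 cells in the replicate 1 libraries and cluster 6 as few as 6, and neither was tested.

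By role, none of the remaining members passed in table cells. Of the transcription factors, Stat2 (20.7 and 21.4 CPM in SFB-positive, 17.8 and 20.6 CPM in SFB-negative replicates 1 and 2), Irf9 (50.8 and 27.6 against 52.1 and 34.8 CPM) and Irf7 (37.6 and 10.8 against 39.7 and 19.6 CPM) had log2 differences from -0.50 to 0.12. For Irf7 and Irf9 both libraries of number 1 were above both of number 2. Irf9 overlaps Rnf31 and Irf7 overlaps Phrf1, so their reads may be shared. Of 6 sensors and nucleic acid binders, log2 differences lay between -0.35 (Zbp1, a sensor of Z-form nucleic acid) and 0.37 (Ifih1, the double-stranded RNA sensor MDA5). Zbp1 had 24.0 and 11.7 CPM in SFB-positive, against 20.5 and 20.1 CPM in SFB-negative libraries. Ifi209, an AIM2-like receptor gene, had 104 and 116 CPM in SFB-positive and 103 and 146 CPM in SFB-negative libraries (log2 -0.17 ± 0.25), and shares 63.4% of the 50-base words of its transcript end with Ifi214 and overlaps Gm44339 on the other strand. The 5 oligoadenylate synthetase genes, which activate RNase L or are relatives of those that do, ranged from -0.85 to 0.23, and the 3 tested IFIT genes from -0.99 to -0.39.

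Among antiviral effectors, Bst2 (tetherin, which holds budding virions at the cell surface) had 73.3 and 27.8 CPM in SFB-positive, against 59.0 and 46.7 CPM in SFB-negative libraries (log2 -0.24 ± 0.23). The 5 tested effectors ranged from -1.24 for Mx1, with 2 and 46 UMIs against 1 and 57, to -0.24. Usp18, the protease that blunts receptor signalling, had 4.72 and 1.26 CPM in SFB-positive, against 5.86 and 2.62 CPM in SFB-negative libraries (log2 -0.75 ± 0.37, edgeR adjusted p = 0.391). Both Schlafen genes had estimates below 0, and Slfn8, at 5.81 and 8.73 CPM against 9.66 and 14.2 CPM, was lower in SFB-positive libraries of both numbers (log2 -0.71 ± 0.25) yet missed the limit (edgeR adjusted p = 0.0869). Of the ubiquitin-like system, Trim30a, a ubiquitin ligase gene, had 47.0 and 49.8 CPM in SFB-positive, against 34.7 and 58.3 CPM in SFB-negative libraries (log2 0.08 ± 0.23). Parp14, an ADP-ribosyltransferase gene, had 20.1 and 36.3 against 18.6 and 51.1 CPM (log2 -0.25 ± 0.22).

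Of 40 other genes of the pathway found in the files, 29 were tested in table cells, with 1 called higher and 0 lower, against 0.929% and 2.68% of all genes. The receptor genes Ifnar1 (log2 -0.27 ± 0.24) and Ifnar2 (0.12 ± 0.21) and the kinase gene Jak1 (0.25 ± 0.28) did not pass. Ligands were nearly absent from these cells: 9 of 10 listed interferon genes had 0 UMIs in table cells and in Cd3+ barcodes, where a count of 0 allows up to 3 molecules. Barcodes outside both sets were not searched for them. Ifnk, the interferon kappa gene, had 2 UMIs in the table, both in SFB-negative replicate 2, and 2 and 3 UMIs in Cd3+ barcodes of SFB-positive and SFB-negative replicate 2. Socs3, an inhibitor of JAK-STAT signalling induced mainly through STAT3, was the called gene. It had 136 and 32.5 CPM in SFB-positive replicates 1 and 2, against 61.1 and 16.7 CPM in SFB-negative replicates 1 and 2. Levels followed the replicate number, and within each number the SFB-positive library was about equally far above (log2 1.16 in number 1 and 0.96 in number 2). Its rise was 1.06 on the log2 scale (SE 0.23, edgeR adjusted p = 5.09e-04), and it rose in clusters 0, 1 and 2 as well, while clusters 3 and 4 did not pass (edgeR adjusted p = 0.429 and 0.374). The call in table cells was lost in those with at most 2980 detected genes (log2 1.29, edgeR adjusted p = 0.0739). The call was also lost with any 1 library left out, and with no block, when 0% of all genes passed. In Cd3+ barcodes Socs3 did not pass (226 and 72.0 CPM in SFB-positive, 205 and 52.4 CPM in SFB-negative libraries, log2 0.32 ± 0.23). Its difference there was smaller than in table cells by 0.70 (SE 0.13, edgeR adjusted p = 3.07e-05 for the difference of differences). In that test 0.508% of all genes were called higher and 1.01% lower. The difference of differences of Socs3 was not called with no block, when 0.0166% of all genes passed. Irf8, another listed pathway gene, also passed with the block (-0.62, SE 0.18, edgeR adjusted p = 0.0363). Irf8 passed neither in table cells (log2 0.41 ± 0.29) nor in Cd3+ barcodes (-0.12 ± 0.25).

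In Cd3+ barcodes 0 of 28 tested members passed, against 0.562% of all genes higher and 1.27% lower. At an unadjusted p under 0.05 there were 5 of 28 members (17.9%), against 9.82% of all genes. DESeq2 called 0 (0.0789% of all genes), and the median log2 difference was -0.22 against 0.00 over all genes. Plasmacytoid dendritic cells are the main makers of type I interferon, and their marker list here was Siglech, Ccr9, Cox6a2 and Klk1. These summed to 47.6 and 34.0 plain CPM in Cd3+ barcodes of SFB-positive and 94.8 and 31.8 in those of SFB-negative libraries. In Cd3+ barcodes 1 of the 4 markers was at 0. In plasma-like cluster 6 the same sum was 56.7 and 14.8 in SFB-positive and 0 and 21.9 in SFB-negative libraries. The list for natural killer and innate lymphoid cells was Ncr1, Nkg7, Gzma, Klrb1c and Il7r. Its sum was 1010 and 823 in Cd3+ barcodes of SFB-positive and 2010 and 705 in those of SFB-negative libraries. These barcodes were picked by Cd3 genes, and the sums are not split by gene. They do not show which cells, or which of the listed genes, make up the sums. The part of such cells in these results was not tested. Ly6a came closest. It encodes Sca-1, an interferon-inducible surface protein of lymphocytes and stem cells, at chr15:74994877-74998031 (minus strand). In Cd3+ barcodes it had 123 and 30.7 CPM in SFB-positive replicates 1 and 2, against 54.8 and 18.7 CPM in SFB-negative replicates 1 and 2. The libraries of number 1 were above those of number 2, and in each number the SFB-positive library was higher, by 1.17 and 0.71 on the log2 scale. The combined difference was 0.88 (SE 0.25, edgeR adjusted p = 0.0592). It passed when barcodes with a B-cell gene or fewer than 2 Cd3 UMIs were left out (1.18, edgeR adjusted p = 0.0124; 0.749% of all genes higher), under 10% mitochondrial UMIs (0.89, adjusted p = 0.0295; 0.764% higher) and with no filter on low counts (0.93, adjusted p = 0.0291). Without SFB-positive replicate 1, in a fit that cannot hold the block, the difference was -0.15. Mean levels were 77.0 ± 65.6 CPM in SFB-positive and 36.8 ± 25.6 CPM in SFB-negative libraries (SD, n = 2 each).

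In table cells Ly6a had 229 and 70.2 CPM in SFB-positive, against 192 and 66.9 CPM in SFB-negative libraries (log2 0.16 ± 0.25, edgeR adjusted p = 0.931). The difference of the SFB differences, Cd3+ barcodes minus table cells, was 0.66 (SE 0.16, edgeR adjusted p = 0.00784). Ly6a was the only 1 of 32 members to pass that test, against 0.508% of all genes higher and 1.01% lower. By marker, Cd3+ barcodes with a Cd4 UMI and no B-cell gene held 20 and 110 Ly6a UMIs in SFB-positive replicates 1 and 2, against 1 and 12 in SFB-negative replicates 1 and 2, which is 223 and 38.0 plain CPM against 28.5 and 16.6. Cd8-marked barcodes held 43.2 and 7.68 plain CPM in SFB-positive, against 12.4 and 3.52 in SFB-negative libraries. Numbers of Cd4-marked barcodes were 54 and 407 in SFB-positive, against 21 and 185 in SFB-negative libraries, and those of Cd8-marked ones 75 and 254 against 94 and 224. The Cd4-marked barcodes thus also made up more of the SFB-positive set, and their part in the Ly6a result was not tested. In these summed counts, more cells of a type and more RNA per cell cannot be told apart.

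The remaining abundant members did not pass in Cd3+ barcodes, with adjusted p of 0.452 or more in edgeR. Ifi209 had 61.7 and 69.9 CPM in SFB-positive, against 60.9 and 90.3 CPM in SFB-negative libraries, and Bst2 had 116 and 40.9 against 114 and 76.2 CPM (log2 -0.55 ± 0.25). Irf7 stood at 63.6 and 21.7 CPM in SFB-positive and 79.2 and 25.5 CPM in SFB-negative libraries, and Irf9 at 79.0 and 33.9 against 56.9 and 49.6 CPM. Stat2 had 30.8 and 18.8 CPM in SFB-positive, against 22.3 and 21.3 CPM in SFB-negative libraries. The groups overlapped for all of these. Trim30a had 61.7 and 61.6 CPM in SFB-positive and 52.8 and 68.8 CPM in SFB-negative libraries, Parp14 had 27.0 and 47.9 against 10.2 and 65.9 CPM, and Zbp1 had 59.8 and 23.4 against 26.4 and 32.4 CPM. For each of the 3 the log2 difference was positive in number 1 and negative in number 2.

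Levels of the members differed between the clusters, which is a description only, since the clusters were made from the same cells. Of all 34 members, 29 had their lowest mean level of clusters 0 to 4 in germinal-centre-like cluster 3, against 26.7% of genes with 10 or more UMIs, and 23 had their highest in naive-like cluster 1, against 17.7% of genes. Cluster 1 was above cluster 3 in all 4 libraries for 27 members (18.4% of genes) and below it for 0. Cluster 3 cells hold more RNA, so counted as UMIs per cell, 15 of 34 members were still lowest in cluster 3, against 5.89% of genes, while cluster 1 was above cluster 3 in all 4 libraries for 11 members (2.66% of genes) and below it for 6 (55.4% of genes). Oasl1, a regulator of Irf7 translation in mouse, had 28.0 and 28.6 plain CPM in cluster 1 in SFB-positive replicates 1 and 2, and 19.6 and 24.7 in SFB-negative replicates 1 and 2. In cluster 3 it had 5.28 and 4.46 in SFB-positive, and 2.93 and 1.04 in SFB-negative libraries. Herc6, the gene of the mouse ISG15 ligase, was higher in cluster 3 in 3 of 4 libraries, with 10.6 and 50.04 plain CPM in cluster 3 in SFB-positive and 13.2 and 34.3 in SFB-negative libraries, against 14.3 and 23.2, and 5.88 and 25.0, in cluster 1. Bst2 was highest in plasma-like cluster 6, at 176 and 161 plain CPM in SFB-positive and 162 and 172 in SFB-negative libraries, on 6 to 68 cells per library.

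Isg15 separated Cd3+ barcodes from table cells. It had 165 and 105 plain CPM in Cd3+ barcodes of SFB-positive replicates 1 and 2 and 116 and 105 in those of SFB-negative replicates 1 and 2, against 14.6 and 13.9, and 15.3 and 18.2, in table cells of the same libraries. At 1000 UMIs per cell an Isg15 molecule was seen in 13.0% and 8.97% of SFB-positive and 11.6% and 7.64% of SFB-negative Cd3+ barcodes, against 1.18% and 1.27%, and 1.43% and 1.35%, of table cells. The part of free RNA in the droplets in these shares was not tested. Within Cd3+ barcodes the level was higher in Cd4-marked ones (267 and 161 plain CPM in SFB-positive, 314 and 232 in SFB-negative libraries) than in Cd8-marked ones (138 and 71.9 in SFB-positive, 86.9 and 59.9 in SFB-negative libraries) in all 4 libraries. Between SFB groups Isg15 did not pass in Cd3+ barcodes (log2 0.05 ± 0.24, edgeR adjusted p = 0.979) or in table cells (-0.45 ± 0.22, 0.399). Of the 34 members, 20 were higher in Cd3+ barcodes than in table cells in all 4 libraries, against 19.1% of genes, and 4 were lower in all 4 (Ifi209, Oasl1, Dhx58 and Ly6a), against 22.6% of genes. Ifit1 had 27.5 and 4.07 plain CPM in Cd3+ barcodes of SFB-positive and 9.68 and 5.63 in those of SFB-negative libraries, against 3.19 and 0.218, and 1.10 and 0.93, in table cells.

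**Figure D4:**
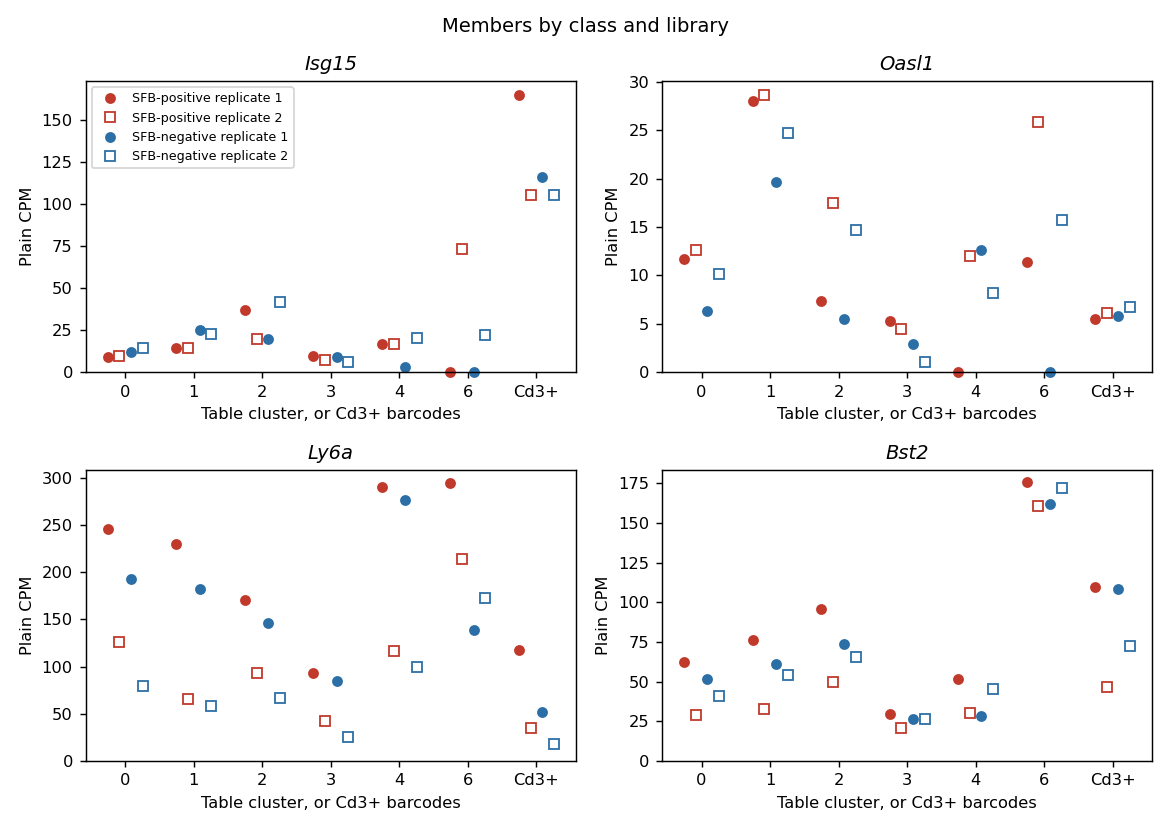
Plain CPM of Isg15, Oasl1, Ly6a and Bst2 by table cluster and in Cd3+ barcodes, 1 point per library. Isg15 is highest in Cd3+ barcodes (105 to 165), Oasl1 in cluster 1 among clusters 0 to 4 (19.6 to 28.6), and Bst2 in cluster 6 (161 to 176).

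Cells with several core response genes at once were rare in both groups. The core is 10 genes (Isg15, Ifit1, Ifit2, Ifit3, Ifit3b, Mx1, Oasl1, Rsad2, Usp18 and Cmpk2). With each cell thinned to 1000 UMIs, 2 or more of them were seen in 13 of 2955 and 6 of 7297 table cells of SFB-positive replicates 1 and 2 (0.440%, 95% exact binomial interval 0.234 to 0.751, and 0.0822%, 0.0302 to 0.179). In SFB-negative replicates 1 and 2 they were seen in 7 of 3437 and 23 of 7657 cells (0.204%, 0.0819 to 0.419, and 0.300%, 0.191 to 0.450). Intervals cover counting error only. The 2 SFB-positive libraries were the highest and the lowest of the 4, so the groups overlapped. Without thinning, the shares were 0.675% and 2.32% in SFB-positive, against 0.444% and 1.38% in SFB-negative libraries, in the order of depth within the groups. In Cd3+ barcodes the thinned shares were 2.01% and 0.574% in SFB-positive and 1.05% and 0.535% in SFB-negative libraries.

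Table cells with 3 or more core genes, at full depth, numbered 10 and 27 in SFB-positive replicates 1 and 2, and held 68 of 277 and 165 of 2106 core UMIs. In SFB-negative replicates 1 and 2 they numbered 3 and 34, and held 24 of 243 and 265 of 1352 core UMIs. In cluster 1, the thinned share with 2 or more core genes was 0.847% and 0.148% in SFB-positive, against 0.655% and 0.706% in SFB-negative libraries, with SFB-positive replicate 2 lowest. Among thinned table cells with an Isg15 molecule, 4 of 35 and 3 of 93 in SFB-positive, and 0 of 49 and 13 of 103 in SFB-negative libraries, held another core gene. Among cells without Isg15, that share was 2.33% and 2.21% in SFB-positive and 2.01% and 2.21% in SFB-negative libraries.

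**Figure D5:**
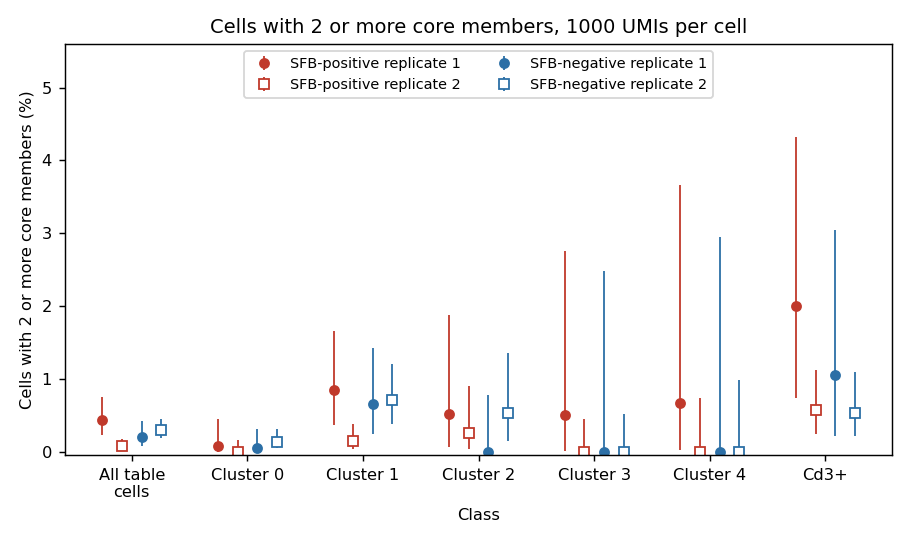
Percent of cells with 2 or more of the 10 core genes after thinning each cell to 1000 UMIs, by class and library, with 95% exact binomial intervals. In all table cells SFB-positive replicate 1 is highest (0.440%) and SFB-positive replicate 2 lowest (0.0822%).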

How the data were processed

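Single-cell libraries were made with a 10x 3' kit, per the labels' protocols, with about 6000 cells loaded and 4000 targeted. The authors deposited raw UMI counts per gene and barcode. The submitters' processing notes name Cell Ranger 5.0.1 and mm10, whereas the file headers name 6.0.0 for replicate 1 and 7.0.0 for replicate 2. The authors also deposited a table with a cluster number (other), counts of UMIs and genes, the percent of mitochondrial UMIs and layout coordinates (score) per cell. Filters, doublet removal and clustering settings behind it are not stated there, and doublets were not removed from the Cd3+ barcodes.

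For each class of cells, UMIs of a library were added up and tested with edgeR 4.0.16 (quasi-likelihood, robust, TMM, filterByExpr, limit 0.05, adjusted over all genes of a class) in R 4.3.3. The replicate number was a term, since software version, tags and depth differ by it; same-numbered libraries deviated together (correlation 0.880 in table cells, 0.747 in Cd3+ barcodes, 2 pairs). Labels do not say that a number marks shared mice. Spread was largely pooled over genes, so small p-values do not measure that gene's own spread. A positive log2 difference means higher in SFB-positive libraries. Alternatives were no replicate block, RLE scaling, no filter, DESeq2 1.42.0 and each library left out. On simulated counts with a fixed spread, the fit with the block found 63.6% of genes changed 2-fold in table cells, 51.5% in cluster 3 and 51% in Cd3+ barcodes. For 4-fold changes the shares were 99%, 97.9% and 96.9%. In the simulation both libraries of a number had the same means apart from the changed genes, which were drawn from all tested genes. The shares thus do not describe scarce members or members whose sign differs between the numbers, and a 2-fold change could be missed. Within-number differences are log2 CPM. Cells were thinned in Python 3.11.15 (numpy 2.4.6), leaving out those under 1000 UMIs. Levels are not per length, and genes were ranked by CPM only to choose those named. Promoters came from RefSeq (GRCm38.p6), gene positions from GENCODE (GRCm38).

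The members and lists were chosen with earlier results of these data known. Genes were named if past the limit in a class, or among the 10 members of highest mean CPM in table cells. Isg15, Slfn8, Usp18, Ifit1, Rsad2, Oasl1, Herc6, Mx1, Ifih1 and Socs3 were named after their values were seen.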

Additional observations from a re-analysis of the deposited data

Results flagged for a closer look

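The SFB difference of Ly6a was larger in Cd3+ barcodes than in table cells of the same libraries, by 0.66 on the log2 scale (SE 0.16, edgeR adjusted p = 0.00784 for the difference of differences). In Cd3+ barcodes Ly6a had 123 and 30.7 CPM in SFB-positive replicates 1 and 2, against 54.8 and 18.7 CPM in SFB-negative replicates 1 and 2. In table cells it had 229 and 70.2 CPM in SFB-positive, against 192 and 66.9 CPM in SFB-negative libraries. The difference stayed positive under every alternative tried, from 0.64 to 0.96 with 1 library left out, but was not called with no replicate block, with DESeq2 or with any 1 library left out.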

How the results depend on the processing

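Without the replicate block the count of members past the limit was 0 in table cells (1 with it), 0 over the clusters (4 with it) and 0 for the difference between Cd3+ barcodes and table cells (1 with it). That fit, with 2 libraries a group, also found none of the changed genes in simulated counts, so its 0 says nothing of stability. The counts were also 0, 0 and 0 with DESeq2, and with any 1 library left out (0 to 0). In table cells it was 0 with RLE scaling and 0 in cells with at most 2980 detected genes. In Cd3+ barcodes it was 1 (Ly6a, 0 otherwise) with no filter on low counts, 1 with 2 Cd3 UMIs and no B-cell gene, and 1 under 10% mitochondrial UMIs. The SFB difference in the percent of table cells with 2 or more core genes was 0.00901 points thinned and 0.582 unthinned. Members lowest in cluster 3 numbered 29 by plain CPM and 15 by UMIs per cell, an alternative chosen after seeing the data. The causes were not tested.

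Some uncalled log2 differences changed sign. In Cd3+ barcodes without the block they became 0.012 for Trim30a, 0.062 for Irf9, 0.15 for Stat2 and 0.44 for Zbp1. RLE scaling gave 0.018 for Trim30a, 0.028 for Stat2 and 0.021 for Zbp1. No filter gave 0.005 for Trim30a, 0.015 for Stat2 and 0.0031 for Zbp1. DESeq2 gave 0.054 for Trim30a, 0.26 for Parp14, 0.14 for Stat2 and 0.29 for Zbp1. With 2 Cd3 UMIs and no B-cell gene they were 0.0265 for Trim30a and 0.14 for Stat2. In table cells with at most 2980 genes they were 0.033 for Ifi209 and 0.012 for Irf9.

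Leaving out 1 library at a time, in fits without the block where a lone library is assumed to vary like the other group, gave these log2 ranges. In table cells they were -1.84 to -0.20 for Ifi27l2a, -0.87 to 1.16 for Ly6a, -0.41 to 0.18 for Ifi209, -0.91 to 0.49 for Bst2, -0.27 to 0.57 for Trim30a, -0.64 to 0.25 for Irf9, -0.85 to 0.71 for Parp14, -1.45 to 0.37 for Irf7 and -0.78 to 0.26 for Zbp1. In Cd3+ barcodes they were -1.31 to 0.033 for Ifi27l2a, -0.15 to 1.99 for Ly6a, -0.46 to 0.18 for Ifi209, -1.17 to 0.27 for Bst2, -0.17 to 0.29 for Trim30a, -0.61 to 0.55 for Irf9, -0.79 to 1.99 for Parp14, -1.18 to 0.67 for Irf7, -0.18 to 0.47 for Stat2 and -0.31 to 0.97 for Zbp1. In cluster 0 the range for Ifi27l2a was -1.86 to 0.021. With a median of 1267 UMIs per table cell in the shallowest library, most members could be read from summed counts and not cell by cell.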
